A study of Mus musculus with 4 samples.

Results

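The vascular endothelial growth factor (VEGF) and angiopoietin systems were followed through 7 named genes: the ligands Vegfa, Vegfc, Angpt1 and Angpt2 and the receptors Flt1, Kdr and Tek. They were taken by symbol, as 7 of the 31054 features in each matrix, and all 7 were found in every matrix. Their UMIs, the molecule counts of droplet sequencing, were read in tumour, myeloid and endothelial cells, and 403 of the 26365 cells kept were endothelial by their marker genes. Single-cell 3′ RNA libraries were made from dissociated mouse mammary tumours of a pair of transplanted models. Cells of each model had been injected orthotopically into mammary gland number 4 of female mice. T11-Apobec grew in the strain labelled Balbc and KPB25Luv in FVB/NJ. The treated T11-Apobec and treated KPB25Luv tumours received anti-PD1 at 10 mg/kg with anti-CTLA4 at 100 µg, both antibodies against immune checkpoints. Dosing was biweekly, it began when tumours measured 5 mm across, and tumours were taken after 7 days of it. The untreated T11-Apobec and untreated KPB25Luv tumours carry the treatment label none. Each of the 4 groups is 1 library, the number of animals behind a library is not given in the labels, and no comparison here has a replicate or a p-value. Each model is a transplanted tumour line in 1 strain, so model and strain cannot be told apart.

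VEGF-A is a secreted growth factor that hypoxic cells make through HIF transcription factors, and it drives endothelial cells to divide, sprout and leak. It signals mainly through Kdr, while Flt1 binds it tightly, signals weakly and is also made as a soluble trap for the ligand. VEGF-C acts through Flt4 on lymphatic vessels and, when processed, through Kdr. Angpt1, made by perivascular and mesenchymal cells, activates the endothelial receptor Tek (Tie2) and steadies vessels, and Angpt2, stored in activated endothelial cells, mostly opposes it and accompanies sprouting.

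On GRCm38, Vegfa lies on chromosome 17 from 46016993 to 46032369 on the minus strand, Vegfc on chromosome 8 from 54077606 to 54187096 on the plus strand and Angpt2 on the same chromosome from 18690263 to 18741562 on the minus strand. Angpt1 lies on chromosome 15 from 42424723 to 42676977 and Flt1 on chromosome 5 from 147561604 to 147726011, both on the minus strand. Kdr lies on chromosome 5 from 75932827 to 75978458 on the minus strand, and Tek on chromosome 4 from 94739289 to 94874976 on the plus strand.

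The 250 bases before the RefSeq start are shown for Vegfa, the member with the most UMIs, and for the 3 receptors, which share endothelial cells. The sequences are RefSeq's (GRCm38.p6), in the direction of transcription; capitals mark GGAA or its reverse complement TTCC, the core that ETS factors bind. Vegfa is chr17:46032378-46032627 (minus strand), Flt1 is chr5:147726012-147726261 (minus), Kdr is chr5:75978456-75978705 (minus) and Tek is chr4:94739039-94739288 (plus).
Vegfa: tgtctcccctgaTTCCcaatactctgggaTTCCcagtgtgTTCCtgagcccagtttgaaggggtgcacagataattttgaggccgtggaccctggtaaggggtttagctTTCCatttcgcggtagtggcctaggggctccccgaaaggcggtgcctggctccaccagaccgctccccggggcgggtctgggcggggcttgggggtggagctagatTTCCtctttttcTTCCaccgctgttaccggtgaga
Flt1: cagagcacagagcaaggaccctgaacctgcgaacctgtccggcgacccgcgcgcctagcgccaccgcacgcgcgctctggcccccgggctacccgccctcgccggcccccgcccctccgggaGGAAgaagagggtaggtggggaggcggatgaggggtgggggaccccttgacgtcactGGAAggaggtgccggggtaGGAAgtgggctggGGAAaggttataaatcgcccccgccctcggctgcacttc
Kdr: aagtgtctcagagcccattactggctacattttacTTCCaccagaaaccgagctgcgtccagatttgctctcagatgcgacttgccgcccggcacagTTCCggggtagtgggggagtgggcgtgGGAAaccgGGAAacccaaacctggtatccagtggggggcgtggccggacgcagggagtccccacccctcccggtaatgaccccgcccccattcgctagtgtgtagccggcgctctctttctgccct
Tek: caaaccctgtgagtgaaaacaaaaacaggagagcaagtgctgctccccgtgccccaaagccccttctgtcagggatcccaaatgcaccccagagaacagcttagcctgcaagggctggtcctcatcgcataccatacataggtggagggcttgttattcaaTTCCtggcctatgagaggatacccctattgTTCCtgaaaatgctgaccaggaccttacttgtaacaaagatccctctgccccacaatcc
The core occurs 6 times in the Vegfa window, 4 times in Flt1, 4 times in Kdr and 2 times in Tek. It is a common word: 93.4% of 32851 promoter windows of this length hold it on either strand, with a median of 3 matches. The hypoxia response core ACGTG, searched on both strands and held by 16.6% of the windows, is in none of these 4 windows. A second annotated Vegfa start has 1 match to ACGTG, 211 bases before it. Windows were matched for 5 of the 7 genes, the other two being Angpt1 and Angpt2. The Vegfc window has 0 matches to ACGTG and 1 to the ETS core. A match is a description of letters and not of a bound site.

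The deposited matrices held 5509 to 11304 cell barcodes and 30369476 to 98475778 UMIs per library. After filtering, 5041 to 9388 cells per library were kept, and their median depth was 3952.5 and 3732 UMIs in the treated T11-Apobec and KPB25Luv libraries, against 7122 and 9117 in the untreated ones. Library pairs shared 0.523% to 1.41% of their barcodes. Cell classes were set from marker genes, so that "endothelial" and the other names below mean cells carrying those markers. Markers were also found outside the class they define: T cells of the treated KPB25Luv library held the keratin Krt8 at 0.144% of its tumour-cell level, and those of the untreated one at 12.2% (226 CPM). The same share taken on Fn1 was 0.384% in treated and 26.0% in untreated KPB25Luv, and 1.57% in treated and 6.30% in untreated T11-Apobec. Taken on Sparc it was 1.30% in treated and 3.26% in untreated T11-Apobec. T cells serve below as the background class. They held 0 to 3 Kdr UMIs and 0 Tek UMIs in each library, and Vegfa at 1.59 CPM in treated and 0 in untreated T11-Apobec. CPM means UMIs of a gene per 1000000 UMIs of the same class in the same library. Intervals are exact 95% intervals that cover counting error only, and PCR, cell-to-cell and animal-to-animal variation are outside them.

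Endothelial cells were a smaller share of the treated library in each model. Endothelial cells were 4 of 5812 treated T11-Apobec cells (0.0688%, 95% interval 0.0188 to 0.176%), against 313 of 9388 untreated ones (3.33%, 2.98 to 3.72%). In KPB25Luv they were 9 of 5041 treated cells (0.179%, 0.0817 to 0.339%), against 77 of 6124 untreated cells (1.26%, 0.994 to 1.57%). Pericytes, the contractile cells that wrap capillaries, numbered 0 in both treated libraries, which by a limit of 3 counts allows up to 0.0516% of treated T11-Apobec and 0.0595% of treated KPB25Luv cells; there were 53 in untreated T11-Apobec and 13 in untreated KPB25Luv. T cells made up 2927 and 3921 of the treated T11-Apobec and KPB25Luv cells, against 384 and 1238 of the untreated ones. These cells carry endothelial markers by the rule that chose them. One of those markers, the junction cadherin Cdh5, stood at 1031 CPM in treated and 873 CPM in untreated T11-Apobec, and at 691 CPM in treated and 542 CPM in untreated KPB25Luv. The leukocyte gene Ptprc had 0 UMIs in treated and 7 in untreated T11-Apobec endothelial cells, and 1 in treated and 5 in untreated KPB25Luv ones. No endothelial cell carried 2 or more UMIs of the lymphatic markers.

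Whole-library levels of the receptors were lower in the treated library of each model, as was the endothelial share. Over all cells, Flt1 stood at 7.78 CPM in treated and 24.3 CPM in untreated T11-Apobec, a log2 ratio of -1.64 (-1.81 to -1.48). In KPB25Luv it stood at 1.73 CPM in treated and 9.41 CPM in untreated cells (log2 -2.43, -2.89 to -2.03). Kdr, the main signalling receptor, stood at 1.07 CPM in treated and 5.83 CPM in untreated T11-Apobec (log2 -2.43, -2.92 to -2.01). In KPB25Luv, Kdr stood at 1.30 CPM in treated and 3.52 CPM in untreated cells (log2 -1.41, -1.97 to -0.93). All 4 of these intervals lie below 0. Tek, the angiopoietin receptor, had 0 UMIs in treated and 84 in untreated T11-Apobec, at least 14.5-fold lower against a floor of 3 counts, and 3 UMIs in treated and 43 in untreated KPB25Luv. In such whole-library values, fewer cells of a type and less RNA per cell cannot be told apart. Among the ligands, Vegfa stood at 15.7 CPM in treated and 26.0 CPM in untreated T11-Apobec (log2 -0.72, -0.85 to -0.60), and at 8.89 CPM in treated and 32.1 CPM in untreated KPB25Luv (log2 -1.85, -2.05 to -1.67). Vegfc stood at 7.36 CPM in treated and 11.3 CPM in untreated T11-Apobec (log2 -0.62, -0.81 to -0.44), and at 2.54 CPM in treated and 17.2 CPM in untreated KPB25Luv (log2 -2.75, -3.12 to -2.42). Angpt2 stood at 5.53 CPM in treated and 10.35 CPM in untreated T11-Apobec (log2 -0.90, -1.12 to -0.70), and at 2.22 CPM in treated and 4.58 CPM in untreated KPB25Luv (log2 -1.03, -1.45 to -0.65). Angpt1 stood at 3.48 CPM in treated and 5.10 CPM in untreated T11-Apobec (log2 -0.55, -0.83 to -0.28). In KPB25Luv it was the one ligand that was not lower, at 0.353 CPM (10 UMIs) in treated and 0.139 CPM (11 UMIs) in untreated cells (log2 1.35, -0.05 to 2.72). The tumour class, which held most Vegfa UMIs, was 717 of the treated and 4929 of the untreated T11-Apobec cells, and 70 of the treated and 2844 of the untreated KPB25Luv cells.

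**Figure D1:**
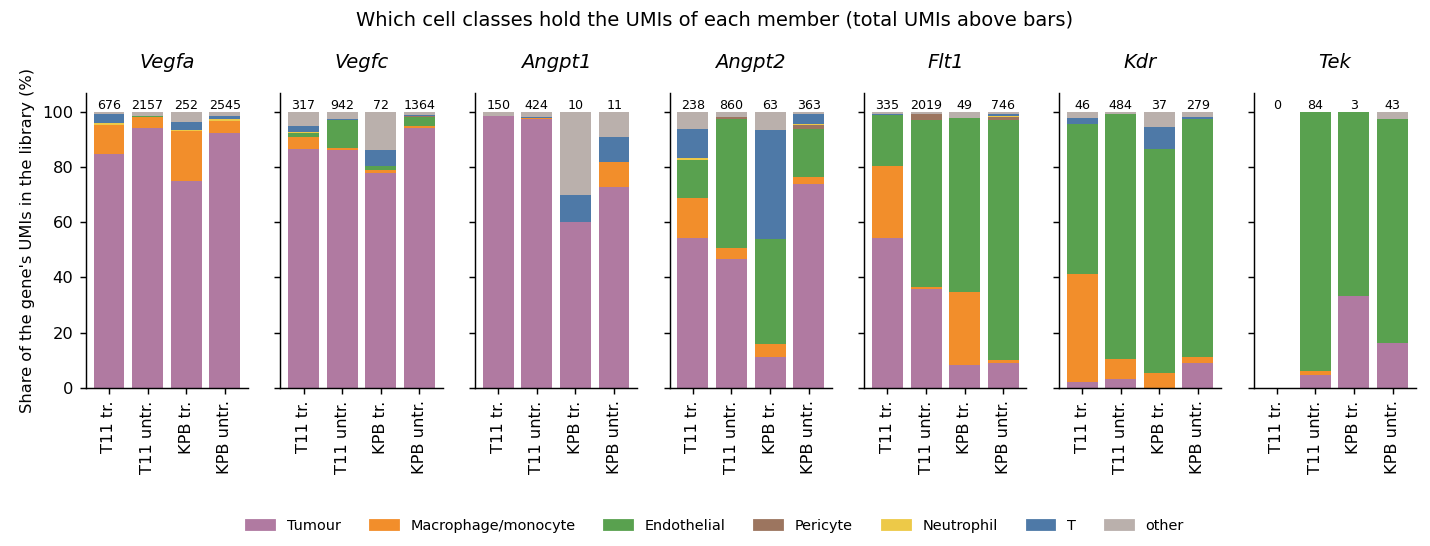
Stacked bars give the share (%) of each gene's UMIs that each cell class held in a library, with treated left of untreated for each model and the total UMIs above each bar. Tumour cells held 75% to 94.4% of Vegfa, while endothelial cells held 86.4% to 89.0% of Kdr in the untreated libraries. A share depends on class size as well as level.

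Most Vegfa and Vegfc UMIs lay in tumour cells, and in the untreated libraries most Kdr and Tek UMIs lay in endothelial cells. Tumour cells held 84.8% of Vegfa UMIs in treated and 94.4% in untreated T11-Apobec, and 75% in treated and 92.6% in untreated KPB25Luv. For Vegfc they held 86.4% in treated and 86.3% in untreated T11-Apobec, and 77.8% in treated and 94.3% in untreated KPB25Luv. Angpt1 was a tumour-cell transcript in T11-Apobec, with 148 of 150 treated and 413 of 424 untreated UMIs there, and it was scarce in KPB25Luv, with 10 treated and 11 untreated UMIs in all. Endothelial cells held 89.0% of Kdr and 94.05% of Tek UMIs in untreated T11-Apobec, and 86.4% of Kdr and 81.4% of Tek UMIs in untreated KPB25Luv. Flt1 was less restricted in T11-Apobec: endothelial cells held 18.8% of its treated and 60.6% of its untreated UMIs there, against 63.3% of treated and 87.0% of untreated UMIs in KPB25Luv. Angpt2 was divided between endothelial and tumour cells. Of its UMIs, tumour cells held 54.2% in treated and 46.7% in untreated T11-Apobec, and endothelial cells 13.9% in treated and 47.0% in untreated. In KPB25Luv tumour cells held 11.1% in treated and 73.8% in untreated, endothelial cells 38.1% in treated and 17.4% in untreated, and T cells 39.7% (25 UMIs over 3921 cells) in treated and 3.58% in untreated. A share depends on class size as well as level. Over all genes, untreated KPB25Luv tumour cells held 64169366 UMIs and endothelial cells 797018. Treated KPB25Luv T cells held 21655436 and tumour cells 2029314. In untreated T11-Apobec, Vegfc stood at 12.3 CPM in tumour cells and 11.3 CPM over all cells.

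In endothelial cells all 3 receptors and Angpt2 were read well in the untreated libraries, and the treated ones gave too few cells for a comparison. Flt1 stood at 1083 CPM (63 UMIs, 4 cells) in treated and 670.5 CPM (1224 UMIs) in untreated T11-Apobec, and at 335 CPM (31 UMIs, 9 cells) in treated and 814 CPM (649 UMIs) in untreated KPB25Luv. Kdr stood at 429.6 CPM in treated and 236 CPM in untreated T11-Apobec, and at 324 CPM in treated and 302 CPM in untreated KPB25Luv. A single cell held 21 of the 25 Kdr UMIs of treated T11-Apobec. Tek, the least counted receptor, had 0 UMIs in treated and 79 in untreated T11-Apobec (43.3 CPM), and 2 in treated and 35 in untreated KPB25Luv (43.9 CPM). Angpt2 stood at 567 CPM in treated and 221 CPM in untreated T11-Apobec, and at 259 CPM in treated and 79.0 CPM in untreated KPB25Luv. Single cells decided the treated values, since 1 cell held 21 of 33 Angpt2 UMIs in treated T11-Apobec and 1 cell 21 of 24 in treated KPB25Luv. In the treated KPB25Luv cells the pericyte gene Rgs5 had 99 UMIs, against 2 in the untreated cells; its part in these values was not tested. Vegfa was scarce in the class, with 4 UMIs in untreated T11-Apobec and 2 in untreated KPB25Luv, and Angpt1 had 0 UMIs in all 4 libraries.

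**Figure D2:**
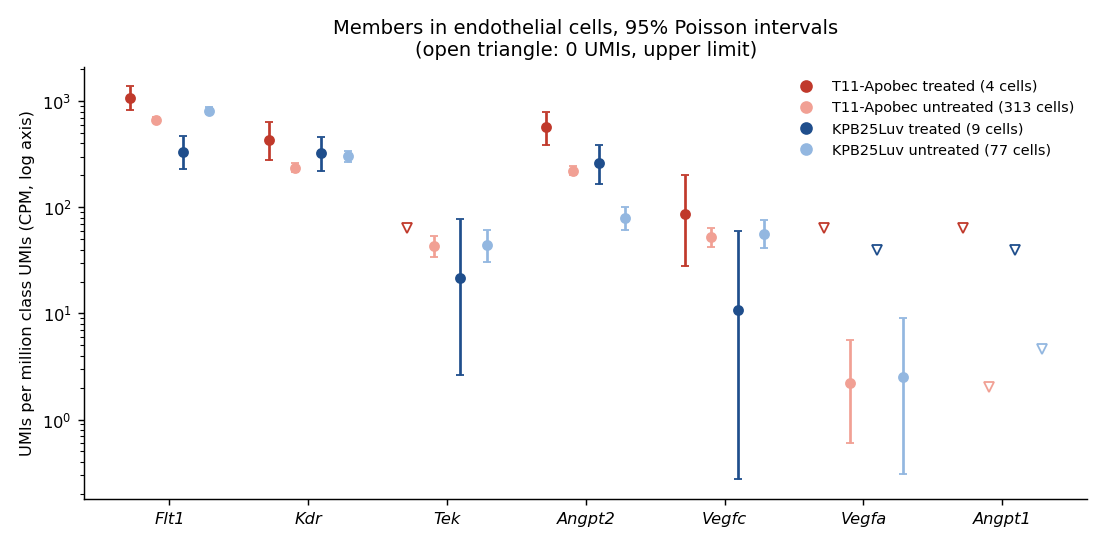
Points give CPM (log axis) of each member in endothelial cells with exact 95% Poisson intervals, and open triangles give the upper limit where 0 UMIs were found. The intervals of the 4 and 9 treated cells are wide, and Angpt2 was higher in untreated T11-Apobec (221 CPM) than in untreated KPB25Luv (79.0 CPM).

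Among the members measured in endothelial cells, Angpt2 differed most between the models. Between the untreated libraries, 1 of the 5 members with at least 10 UMIs in both classes together, Angpt2, passed a 1.5-fold difference with its interval off 0. Its log2 ratio of T11-Apobec over KPB25Luv was 1.48 (1.10 to 1.89; 1.09, 0.05 to 2.55, thinned to 1000 UMIs per cell). Across the 9778 genes tested in these cells, 16.2% passed the same rule. Flt1 was lower in T11-Apobec by less than the 1.5-fold mark (log2 -0.28, -0.42 to -0.14), and so was Kdr (log2 -0.36, -0.59 to -0.12). Tek (log2 -0.03, -0.61 to 0.60) and Vegfc, at 52.0 CPM in T11-Apobec and 56.5 CPM in KPB25Luv (log2 -0.13, -0.64 to 0.43), had intervals across 0. By counting error alone, those intervals reach no further than just past 1.5-fold, and differences in Tek or Vegfc within them were not detectable. With each cell thinned to 1000 UMIs, both ratios lay outside them.

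Detection per cell, read from the same UMIs and so not separate support, gave the same order for Angpt2. After each cell was thinned to 1000 UMIs, Angpt2 was found in 16.3% (12.3 to 20.9%) of 301 T11-Apobec endothelial cells and in 6.49% (2.14 to 14.5%) of 77 KPB25Luv ones, with 12 shallower T11-Apobec cells and 0 KPB25Luv cells left out. Those intervals overlap. Unthinned, the shares were 39.6% in T11-Apobec and 29.9% in KPB25Luv, at median depths of 4616 UMIs in T11-Apobec and 9011 in KPB25Luv. Flt1 was found in 41.9% of thinned T11-Apobec and 44.2% of thinned KPB25Luv cells (82.1% in T11-Apobec and 96.1% in KPB25Luv unthinned). Kdr was found in 17.9% of thinned T11-Apobec and 16.9% of thinned KPB25Luv cells (57.2% in T11-Apobec and 83.1% in KPB25Luv unthinned). In B cells thinned alike, Angpt2, Flt1 and Kdr were found in 0 of 36 T11-Apobec and 0 of 164 KPB25Luv cells, with upper limits of 9.74% and 2.22%. Angpt2 was concentrated: the tenth of cells with most UMIs held 65.1% of it in T11-Apobec (31 cells) and 68.3% in KPB25Luv (8 cells), against 38.6% of Flt1 in T11-Apobec and 29.3% in KPB25Luv. Of the endothelial cells with an Angpt2 UMI, 106 of 124 in T11-Apobec and 23 of 23 in KPB25Luv also had a Flt1 UMI. No receptor was detected in 26 of the 313 T11-Apobec cells and in 1 of the 77 KPB25Luv cells, and all 3 were detected together in 37 T11-Apobec and in 24 KPB25Luv cells.

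Within untreated T11-Apobec, Angpt2 was lower in endothelial cells that carried vein genes. Cells with 2 or more UMIs of vein genes had 135 CPM of Angpt2 (100.5 to 179, 39 cells), against 254 CPM (225 to 286) in the 214 cells with none. Cells with 2 or more UMIs of artery genes had 249 CPM (214 to 288, 98 cells), against 198 CPM (164 to 236) in the 133 with none. The artery intervals overlap and the vein intervals do not, but both leave out the spread between cells. Over all 313 cells, the tenth with most UMIs held 65.1% of Angpt2. In untreated KPB25Luv the 21 cells with vein UMIs had 92.7 CPM and the 37 without had 97.3 CPM. Kdr in T11-Apobec stood at 286 CPM (248 to 328) in the cells with artery UMIs, against 208 CPM (173 to 247) in those with none. Depth differed between these T11-Apobec subsets, with medians of 6585 UMIs with vein UMIs and 4371.5 without, and 5693.5 with artery UMIs and 3826 without; its part was not tested.

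Other genes of the pathway were read in the same comparison. Pgf, placental growth factor, a ligand of Flt1, had 252 CPM (460 UMIs) in untreated T11-Apobec and 17.6 CPM (14 UMIs) in untreated KPB25Luv endothelial cells (log2 3.79, 3.08 to 4.73). T11-Apobec tumour cells held Pgf at 54.1 CPM untreated, below the endothelial level. Of the 7 partner genes measured, Pgf was higher and Nrp2, a co-receptor named after its value was seen, was lower at 63.5 CPM in T11-Apobec and 134 CPM in KPB25Luv. The other partners with most UMIs were the co-receptor Nrp1 (log2 -0.54), the phosphatase Ptprb, which restrains Tek (log2 -0.33), and Tie1, the orphan receptor that pairs with Tek (log2 0.31). The partners' median was -0.33, against -0.04 over all genes. Of 16 tip cell and sprouting genes, 6 were higher and 2 lower, with a median of 0.22; over all genes 6.93% were higher and 9.27% lower. Their 4 most counted genes, Igfbp3 (log2 -0.53), Col4a2 (0.32), Col4a1 (-0.13) and Plvap (-0.52), lay on both sides of 0. Among the 6 higher, and named after their values were seen, Esm1 had 471 CPM in T11-Apobec and 91.6 CPM in KPB25Luv, and the peptide ligand Apln 559 and 84.1 CPM. The 2 lower, named in the same way, were Kcne3 (280 CPM in T11-Apobec and 654 CPM in KPB25Luv) and Aplnr (165 and 291 CPM).

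Artery and vein genes leaned the other way, and capillary genes did not. Of 5 artery genes 3 were lower and 0 higher in T11-Apobec (median log2 -0.94). The gap-junction gene Gja4 had 99.7 CPM in T11-Apobec and 257 CPM in KPB25Luv (log2 -1.37), and the Notch target Hey1 a log2 ratio of -0.94. Sox17 (0.12) and Efnb2 (-0.42) did not pass. Of 4 vein genes 2 were lower and 0 higher (median -0.97), namely Ackr1, the venular chemokine receptor (log2 -1.56), and Selp, P-selectin (-2.41). Of 4 capillary genes Gpihbp1 (0.61) and Rgcc (0.78) were higher, Car4 was lower with 1 UMI in T11-Apobec and 29 in KPB25Luv, and Cd36 (0.21) did not pass (median 0.41). Of 10 quiescence and activation genes 4 were lower and 0 higher (median -0.56), and 2 of the 4, Ackr1 and Selp, are the vein genes already named. This list mixes both kinds of gene, and its most counted genes did not pass. Klf2 had 440 CPM in T11-Apobec and 398 CPM in KPB25Luv, Foxo1 75.6 and 66.5, Nos3 71.2 and 75.3, and Klf4 47.1 and 47.7. Of 8 endothelial transcription factors, 0 passed in either direction (median -0.26), Ets1 among them at -0.47. Of 8 dissociation stress genes 3 were higher and 1 lower (median 0.60), and of 21 hypoxia genes 3 were higher and 1 lower (median -0.04). KPB25Luv endothelial cells held Krt8 at 242 CPM, near the 226 CPM of T cells, against 9.86 CPM in T11-Apobec. The part of stress and free RNA in the endothelial differences was not tested.

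**Figure D3:**
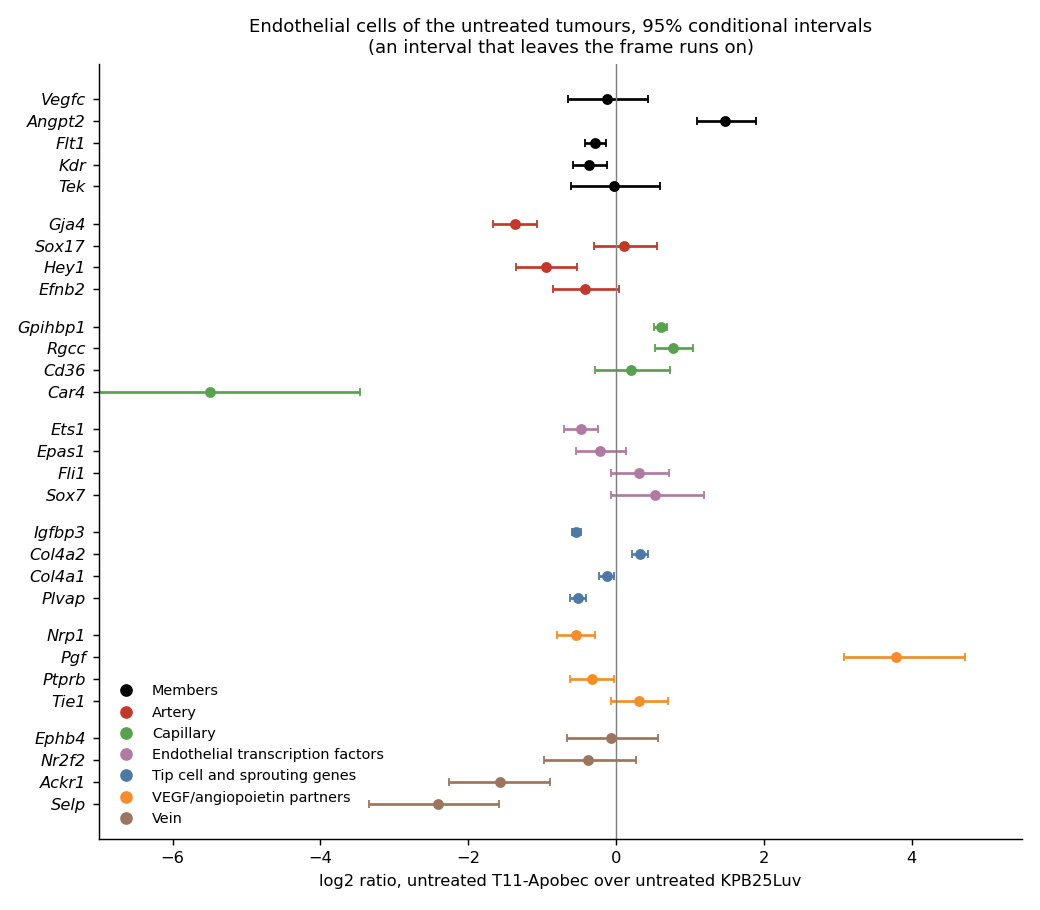
Points give log2 ratios of CPM in endothelial cells, untreated T11-Apobec over untreated KPB25Luv, with 95% conditional intervals, for the measured members and the 4 most counted genes of 6 lists. Angpt2 (1.48) and Pgf (3.79) lie right of 0, while Gja4, Hey1, Ackr1 and Selp lie left of it.

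Pericytes held Flt1 UMIs and no Kdr UMI. In untreated T11-Apobec, 20 of the 53 pericytes held 39 Flt1 UMIs (158 CPM, 113 to 217) and 0 Kdr UMIs, where the endothelial proportion of the same library would give 13.7. In untreated KPB25Luv, 13 pericytes held 9 Flt1 UMIs (94.5 CPM) and 0 Kdr UMIs, where that library's endothelial proportion would give 3.34. Flt1 per Kdr UMI was 2.84 in untreated T11-Apobec and 2.69 in untreated KPB25Luv endothelial cells.

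Tumour cells held most Vegfa and Vegfc, and in T11-Apobec none of the 6 members with at least 10 UMIs there passed the 1.5-fold rule between treated and untreated cells, against 15.2% of 14042 genes. Vegfa stood at 30.6 CPM (573 UMIs) in treated and 30.8 CPM (2036 UMIs) in untreated tumour cells (log2 -0.01, -0.15 to 0.12). Vegfc stood at 14.6 CPM in treated and 12.3 CPM in untreated cells (log2 0.25, 0.05 to 0.45). Those intervals keep both differences under 1.5-fold. Angpt1 stood at 7.90 CPM in treated and 6.24 CPM in untreated cells (log2 0.34, 0.06 to 0.61), with 0 UMIs in treated and 2 (2.60 CPM) in untreated T cells. Angpt2 stood at 6.88 CPM in treated and 6.08 CPM in untreated cells (log2 0.18, -0.12 to 0.47).

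T11-Apobec tumour cells also carried the receptor Flt1. It stood at 9.71 CPM (182 UMIs in 128 cells) in treated and 10.98 CPM (726 UMIs in 594 cells) in untreated tumour cells (log2 -0.17, -0.42 to 0.06). Kdr had 1 UMI in treated and 15 in untreated tumour cells, where the endothelial proportion of the untreated library would give 256; the treated library's 4 endothelial cells are too few for such a proportion. T cells of the treated library held 1 Flt1 UMI (0.0759 CPM) and those of the untreated library 0, where a count of 0 allows up to 3.91 CPM. Full-length and soluble Flt1 cannot be told apart in these gene-level counts. In KPB25Luv tumour cells Flt1 had 4 UMIs in the treated library and 1.06 CPM in the untreated one, level with 1.04 CPM in untreated T cells. There were 2.72 Flt1 UMIs per Kdr UMI in those untreated tumour cells and 2.69 in endothelial cells. The tumour cells were uneven, and a cluster led by Col4a3 held Flt1 at 2.65 CPM (1.51 to 4.30, 16 UMIs) with 0 Kdr UMIs.

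In KPB25Luv tumour cells, 2 of the 6 members with at least 10 UMIs passed the rule, both ligands, against 30.6% of all genes. Vegfa stood at 93.1 CPM (80.3 to 107.4, 189 UMIs in 70 cells) in treated and 36.7 CPM (35.2 to 38.2, 2356 UMIs in 2844 cells) in untreated tumour cells (log2 1.35, 1.12 to 1.56; 1.09, -0.49 to 2.15, with each cell thinned to 1000 UMIs). Angpt1 had 6 UMIs in treated and 8 in untreated cells (log2 4.60, 2.76 to 6.28), 3 of the 6 in 1 cell; thinned to 1000 UMIs per cell, 2 UMIs are left in all and the interval includes 0. Vegfc stood at 27.6 CPM in treated and 20.04 CPM in untreated cells (log2 0.47, 0.05 to 0.85). Angpt2 stood at 3.45 CPM in treated and 4.18 CPM in untreated cells (log2 -0.18, -1.60 to 0.79), with treated T cells at 1.15 CPM and untreated ones at 2.26 CPM. The median over all genes in this comparison was 0.24, so values are read against that shift.

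The treated and untreated KPB25Luv tumour cells lay mostly in different clusters, and normal epithelium was not separated from tumour cells in this model. Gstt1, a glutathione transferase named after its values were seen, had 7.39 CPM in treated and 952.6 CPM in untreated cells of the class. A cluster led by Col4a3, Tmprss11e and Krt16 held 84.3% of the treated tumour cells (59) and 10.5% of the untreated ones (299). Within it Vegfa was 103 CPM in treated and 97.3 CPM in untreated cells (log2 0.09, -0.16 to 0.33), and Vegfc 30.3 CPM in treated and 36.8 CPM in untreated cells (log2 -0.27, -0.73 to 0.15). The other large cluster, led by Rorb, Soat2 and Snai1, held 0 treated cells and 87.2% of the untreated ones (2479), with Vegfa at 30.3 CPM and Vegfc at 18.4 CPM. Within the shared cluster both intervals include 0. Inside the untreated library the clusters themselves differed in Vegfa, with 97.3 CPM in the shared cluster and 30.3 CPM in the other.

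T11-Apobec tumour cells were also divided. A cluster led by Areg, Adm, Ero1l, Ndrg1 and Eno2, several of them known hypoxia genes, held 7.53% of treated and 8.81% of untreated tumour cells and had the highest Vegfa of the model's clusters of at least 50 cells. There Vegfa was 73.1 CPM (108 UMIs) in treated and 113 CPM (612 UMIs) in untreated cells (log2 -0.63, -0.94 to -0.34). Flt1 was 12.2 CPM in treated and 22.6 CPM in untreated cells of that cluster (log2 -0.86, -1.69 to -0.17). In the cluster led by Cldn9 and Krt18 the Vegfa ratio was 0.09 (-0.39 to 0.52), and in the cycling cluster led by Pif1 and Plk1 it was 0.36 (-0.03 to 0.71). Angpt1 in the Cldn9 cluster had 8 treated and 26 untreated UMIs (log2 1.89, 0.48 to 3.02). Outside the Areg cluster Vegfa lay between 22.0 and 28.1 CPM in clusters of at least 50 cells. Most treated cells (69.2%) lay in a cluster led by interferon genes such as Apol6, Tgtp1 and Cxcl9, with Vegfa at 27.6 CPM and Angpt1 at 10.7 CPM; only 29 untreated cells lay there. Angpt1 was uneven among untreated cells: a cluster of 2007 cells led by Aspn, Mest and Igfbp5 held 313 of the 413 UMIs (16.2 CPM), and the cycling cluster led by Pif1 and Plk1 had 2.00 CPM. The members were left out of the genes used to form the clusters. These levels describe the clusters, and the causes of their differences were not tested.

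**Figure D4:**
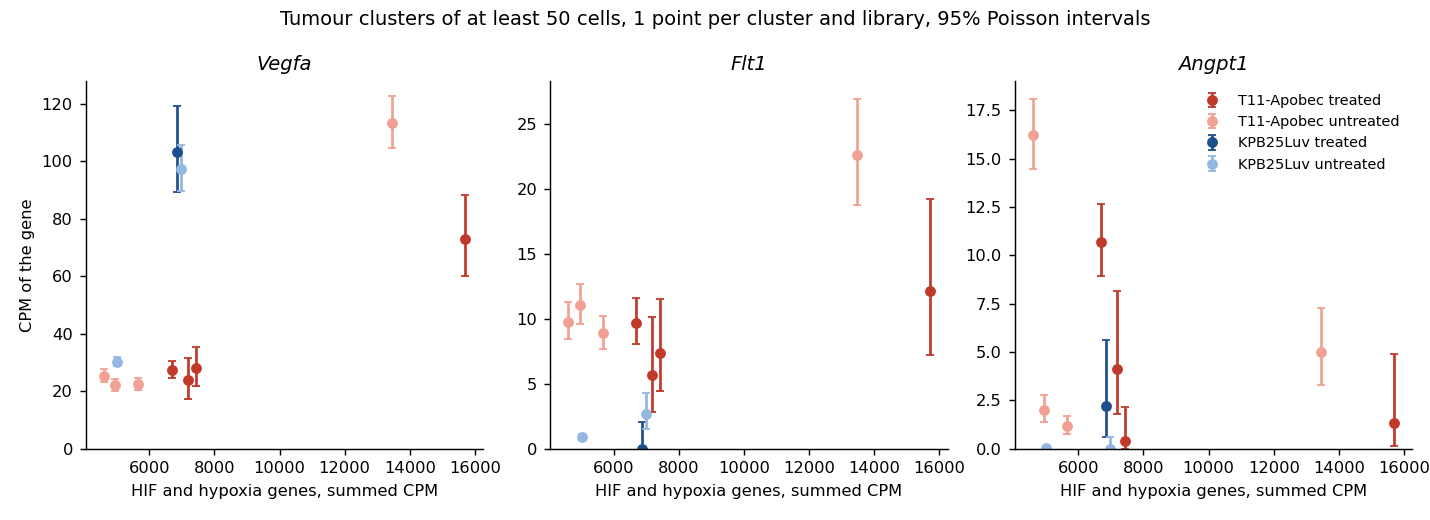
Each point is a tumour cluster of at least 50 cells in 1 library, with the summed CPM of the HIF and hypoxia genes on the x axis, the CPM of Vegfa, Flt1 or Angpt1 on the y axis and exact 95% Poisson intervals. Vegfa was highest in the T11-Apobec cluster with the highest hypoxia sum (73.1 CPM treated, 113 CPM untreated) and in the shared KPB25Luv cluster (103 CPM treated, 97.3 CPM untreated), whose hypoxia sum was 6854 CPM in treated and 6978 CPM in untreated cells.

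Of the pathway partners in tumour cells, Pgf stood at 20.8 CPM in treated and 54.1 CPM in untreated T11-Apobec (log2 -1.38), where 2 of 6 measured partners were higher and 1, Pgf, was lower (median -0.16, against -0.05 over all genes). Vegfb, a ligand of Flt1, was one of the higher ones (log2 0.60), and Nrp1 (-0.56) and Nrp2 (0.25) did not pass. In KPB25Luv, 3 of 9 partners were higher and 1 lower (median 0.42, against 0.24 over all genes), with Nrp2 at 45.3 CPM in treated and 114 CPM in untreated cells (log2 -1.32) and Vegfd at a log2 ratio of 0.83. Of 23 HIF and hypoxia genes, 6 were higher and 1 lower in treated T11-Apobec tumour cells (median 0.21; 8.33% higher and 6.9% lower over all genes). In KPB25Luv 10 were higher and 1 lower (median 0.19; 23.2% higher and 7.45% lower over all genes). The glycolytic enzymes Pgk1 (log2 0.65) and Aldoa (0.43) and the cytokine Mif (0.49) were counted most in T11-Apobec with Ldha (0.12). In KPB25Luv Aldoa was at 1.34 while Mif (0.17), Ldha (0.02) and Eno1 (-0.09) stayed under the 1.5-fold mark. The dissociation stress genes, which respond to enzymatic digestion, were lower in treated T11-Apobec for 7 of 8 (median -1.29) and higher in treated KPB25Luv for 6 of 8 (median 1.46). Their part in the ligand levels was not tested.

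The untreated tumour cells of the models differed in 3 of 7 members by the same rule, against 56.6% of all genes (23% higher and 33.6% lower). Angpt1 was higher in T11-Apobec, at 6.24 CPM there and 0.125 CPM in KPB25Luv (log2 5.56, 4.65 to 6.87), where T cells had 0.174 CPM. Flt1 was higher, at 10.98 CPM in T11-Apobec and 1.06 CPM in KPB25Luv (log2 3.36, 3.01 to 3.75). Vegfc was lower, at 12.3 CPM in T11-Apobec and 20.04 CPM in KPB25Luv (log2 -0.70, -0.83 to -0.58), but the call ended with each cell thinned to 1000 UMIs (-0.14, -0.70 to 0.45). Vegfa (log2 -0.25, -0.34 to -0.17) and Angpt2 (0.54, 0.31 to 0.77) did not pass.

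Macrophages and monocytes carried more Flt1 in the treated library of each model. In T11-Apobec Flt1 stood at 12.2 CPM (9.77 to 15.04, 87 UMIs in 67 cells) in treated and 1.30 CPM (14 UMIs in 11 cells) in untreated cells (log2 3.19, 2.41 to 4.16). In KPB25Luv it stood at 18.7 CPM (9.95 to 31.9, 13 UMIs in 12 cells) in treated and 1.45 CPM (8 UMIs) in untreated cells (log2 3.65, 2.30 to 5.16). Flt1 on monocytes is known to serve migration toward VEGF-A and PlGF. T cells held it at 0.0759 CPM in treated T11-Apobec, 0 in treated KPB25Luv and 1.04 CPM in untreated KPB25Luv, near the 1.45 CPM of the untreated macrophages. With cells that carried an endothelial marker UMI left out, the log2 ratios were 3.63 in T11-Apobec and 4.09 in KPB25Luv. With the called doublets kept, 44 untreated T11-Apobec UMIs were counted and the ratio there was 1.75 (1.22 to 2.31).

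The myeloid clusters differed between the libraries as well. Treated T11-Apobec cells lay mostly in a cluster led by Ly6a, Ccl8, Acod1 and Cxcl9 (72.7%, Flt1 11.6 CPM) and one led by Ace, Plac8 and Ly6c2 (17.9%, Flt1 28.1 CPM, 21 UMIs). Untreated ones lay mostly in clusters led by Hspa1a and Il1b (46.3%, Flt1 0.697 CPM) and by Fcrls and Cbr2 (46.6%, Flt1 1.61 CPM). In KPB25Luv the same cluster that Ace led in T11-Apobec held most cells of both libraries, 113 treated and 715 untreated. Within it Flt1 was 19.3 CPM in treated and 1.48 CPM in untreated cells (log2 3.68, 2.25 to 5.22), and Vegfa 71.9 CPM in treated and 19.3 CPM in untreated cells (log2 1.91, 1.34 to 2.43). That cluster was 80.7% of the treated and 96.8% of the untreated KPB25Luv class, so its ratios largely repeat those of the class.

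Vegfa in the same cells stood at 10.1 CPM (72 UMIs) in treated and 7.79 CPM (84 UMIs) in untreated T11-Apobec (log2 0.38, -0.10 to 0.85). In KPB25Luv it stood at 66.1 CPM (48.4 to 88.2, 46 UMIs) in treated and 19.1 CPM (15.6 to 23.1, 105 UMIs) in untreated cells (log2 1.80, 1.26 to 2.31), with treated T cells at 0.323 CPM and untreated ones at 4.87 CPM. Of the members with at least 10 UMIs, 2 of 5 passed the rule in T11-Apobec, Flt1 and Vegfc, against 16.5% of 11942 genes, and Vegfc rests on 14 treated and 8 untreated UMIs (log2 1.37, 0.05 to 2.86; 0.34, -0.74 to 1.37, with doublets kept; 1.72, -1.18 to 4.62, thinned). In KPB25Luv 2 of 4 members, Flt1 and Vegfa, passed, against 23.4% of 10911 genes. Angpt2 did not pass in either model, at 4.91 CPM in treated and 3.06 CPM in untreated T11-Apobec (log2 0.68, -0.05 to 1.41). Kdr had 18 UMIs in treated and 35 in untreated T11-Apobec cells, 2.52 CPM and 3.25 CPM, and with cells carrying an endothelial marker UMI left out it had 18 and 32. Angpt1 and Tek had 2 or fewer UMIs in every library's macrophages. Whether the treated-to-untreated ratios differ between the models has no test here. For Vegfa the log2 ratio was 0.38 in T11-Apobec and 1.80 in KPB25Luv. Thinned to 1000 UMIs per cell it was 1.15 (-0.05 to 2.27) in T11-Apobec and 2.44 (1.02 to 3.86) in KPB25Luv, and those intervals overlap.

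**Figure D5:**
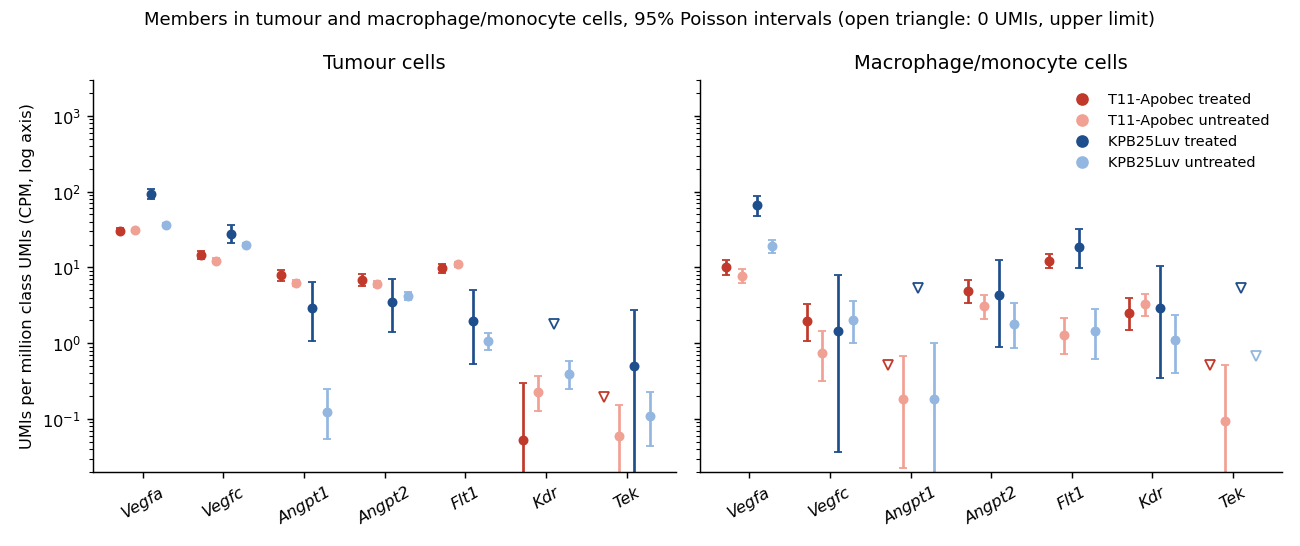
Points give CPM (log axis) of each member in tumour cells (left) and macrophages and monocytes (right) with exact 95% Poisson intervals, and open triangles mark 0 UMIs at the upper limit. Flt1 in macrophages was 12.2 and 18.7 CPM in the treated libraries, against 1.30 and 1.45 CPM in the untreated ones of T11-Apobec and KPB25Luv.

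Many hypoxia genes were higher in the treated macrophages. Of 23, 17 were higher and 1 lower in T11-Apobec (median 0.88, against -0.07 over all genes, of which 7.93% were higher and 8.62% lower). In KPB25Luv 11 of 23 were higher and 0 lower (median 0.62, against -0.19 over all genes, of which 8.99% were higher and 14.5% lower). Aldoa (log2 1.16 in T11-Apobec and 0.83 in KPB25Luv) and Mif (0.70 and 0.73) were higher in both, and Ldha passed in T11-Apobec (0.66) and not in KPB25Luv (0.33). The semaphorin and VEGF co-receptors went in opposite directions in both models. Nrp2 stood at 90.6 CPM in treated and 41.4 CPM in untreated T11-Apobec (log2 1.13) and at 79.0 CPM in treated and 28.5 CPM in untreated KPB25Luv (1.48). Nrp1 stood at 43.0 CPM in treated and 69.8 CPM in untreated T11-Apobec (-0.70) and at 10.1 CPM in treated and 52.3 CPM in untreated KPB25Luv (-2.28). Of all partners measured, 2 of 5 were higher and 1 lower in T11-Apobec (median -0.54), and 1 of 4 was higher and 1 lower in KPB25Luv (median -0.68). The stress genes were lower for 6 of 8 in treated T11-Apobec (median -1.25), and 1 was higher and 1 lower in KPB25Luv (median 0.29); their part was not tested.

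Between the untreated macrophages of the models, Vegfa was lower in T11-Apobec, at 7.79 CPM against 19.1 CPM in KPB25Luv (log2 -1.29, -1.72 to -0.86; thinned -1.04, -2.21 to 0.26), and Kdr was higher, with 35 UMIs in T11-Apobec and 6 in KPB25Luv (log2 1.48, 0.31 to 3.11; thinned 0.25, -2.32 to 6.25). These 2 of 5 members passed the rule, against 25.6% of all genes (10.1% higher and 15.5% lower). The interval of Flt1 included 0 there (log2 -0.20, -1.52 to 1.30).

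Neutrophils and NK cells held few ligand UMIs, but low counts in these classes do not mean low levels. Neutrophils were shallow, with median depths of 656 to 966 UMIs per library. Neutrophils gave 5 Vegfa UMIs in 2 of 42 treated and 1 UMI in 163 untreated T11-Apobec cells, and 1 UMI in 47 treated and 21 UMIs in 19 of 743 untreated KPB25Luv cells (24.6 CPM). NK cells held Vegfc at 14.2 CPM (10 UMIs) in treated and 13.2 CPM (10 UMIs) in untreated T11-Apobec and at 27.9 CPM (4 UMIs) in treated KPB25Luv. T cells of the same 3 libraries held Vegfc at 0.531, 2.60 and 0.185 CPM, below the NK values. Tumour cells of those libraries held it at 14.6, 12.3 and 27.6 CPM, near the NK values. In untreated KPB25Luv the 31 NK cells had 0 Vegfc UMIs.

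Levels over 28 class-by-library units of at least 50 cells gave each gene's nearest companions by Pearson correlation of log2(CPM + 1). Tek ran closest to Limch1, Cyyr1 and Myct1 (r = 0.9996, 0.9963 and 0.991), and Kdr to Afap1l1, Dll4 and Tie1 (0.95 each). Flt1 ran closest to Fbxl7 (0.92), Bmp2 and Adamts4, and Angpt2 to Bmp2, Flt1 and Prex2. Vegfa ran closest to Sh3pxd2b (0.85), Inhba and Vcan, Vegfc to Fbxl2 (0.86), Grasp and Zfp449, and Angpt1 to Flnc (0.74), Ppa2 and Tenm3. Units of 1 library share depth and free RNA. The only endothelial units are those of untreated T11-Apobec and untreated KPB25Luv, so the r values of Tek and Kdr rest largely on them.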

How the data were processed

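Single-cell RNA libraries from 4 mouse mammary tumour samples were deposited as gene-by-barcode matrices of raw UMI counts, made with Cell Ranger 3.0.2 per the file headers and on mm10 per the submitters' processing notes; the matrices as deposited started at 500 to 503 UMIs per barcode. Filters kept barcodes with at least 200 genes and at most 10% mitochondrial counts. They removed 8 to 307 barcodes per library for few genes and 228 to 676 for mitochondrial counts. Scrublet's scores removed the top 0.8% of barcodes per 1000 barcodes as doublets, 232 to 933 per library, because its own threshold called 2, 352, 3 and 8. Cells were put in 15 classes by a marker score capped at the 75th percentile, needing 3 detected markers, or 4 of 10 for endothelial cells. The endothelial markers were Pecam1, Cdh5, Cldn5, Egfl7, Esam, Emcn, Ecscr, Clec14a, Mmrn2 and Robo4, none of them a member. Tumour cells were named from mesenchymal markers and a neomycin resistance gene in T11-Apobec, and also from epithelial markers in KPB25Luv, where normal epithelium was not separated from them. Clusters used 2000 variable genes, 30 components, 15 neighbours and resolution 1.

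UMI counts were summed per class and library and divided by the class total (CPM), with exact Poisson intervals. Log2 ratios had 0.5 added counts and exact conditional intervals, were given over all genes with at least 10 UMIs summed over both classes, and needed classes of at least 50 cells. A gene passed when it differed by 1.5-fold with its 95% interval off 0. With 1 library per group there was no test and no p-value. The interval method was tried on simulated class sums drawn with counting error alone, which cannot show how it does with spread between cells. The text names all members and the 3 genes most alike to each member. The 4 most counted genes of each of 9 lists were to be named, but the text gives them for only some lists and comparisons. The other genes of those lists, such as Esm1 and Apln, and the cluster-leading genes were named after their values were seen. The members and lists were chosen with earlier results of these data known. Alternatives covered the filters, doublets, markers, clustering, cell weighting and depth. The tools were scanpy 1.11.5, scikit-learn 1.9.0, anndata 0.12.19 and igraph 0.11.9 for cells and clusters, scipy 1.17.1 and numpy 2.4.6 for intervals, pandas 2.3.3, and matplotlib 3.10.9 for plots, under Python 3.11.15. The number of animals per library is not given in the sources used here.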

Additional observations from a re-analysis of the deposited data

How the results depend on the processing

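No paired analysis was possible because each group is 1 library and the labels carry no replicate numbers; for the same reason no replicate could be left out. Of 171 alternative values for the 19 log2 ratios that answer a comparison, 146 lay inside the counting interval of the reported value, and none of the ratios past the 1.5-fold rule changed sign. All 19 lay inside it under a floor of 500 genes, up to 20% mitochondrial counts, 1 more marker, classes from the joint clustering and leaving out the cell with most UMIs of the gene. With cells thinned to 1000 UMIs, 13 of the 19 lay outside it and 6 inside. Among those 13, treated over untreated ratios in T11-Apobec were -0.16 for Vegfa and 0.15 for Flt1 in tumour cells. They were 1.15 for Vegfa in T11-Apobec macrophages, and 1.09 and 2.44 for Vegfa in KPB25Luv tumour cells and macrophages. Thinned T11-Apobec over KPB25Luv ratios were -0.44 for Vegfa, -0.14 for Vegfc and 4.31 for Angpt1 in tumour cells, and -0.93 for Vegfc, 1.09 for Angpt2, -0.12 for Kdr and 0.92 for Tek in endothelial cells. Flt1 in T11-Apobec macrophages had 11 treated and 0 untreated UMIs left, so its fitted 6.24 is set by the added counts, and the interval starts at 3.05. Thinning leaves few UMIs and drops shallow cells. With cells weighted equally, Vegfa in KPB25Luv tumour cells was 1.09, and between the models Angpt1 in tumour cells was 4.03 and endothelial Kdr -0.68, past 1.5-fold but with no interval. With doublets kept, Flt1 in T11-Apobec macrophages was 1.75. The following were chosen after seeing the data. In the shared KPB25Luv tumour cluster alone, Vegfa was 0.0902 and Vegfc -0.27. With the T cell level subtracted, Vegfc was 0.54 and Angpt1 1.12 in T11-Apobec tumour cells, Flt1 5.51 in KPB25Luv macrophages, and between the models Vegfa -0.0488, Vegfc -0.94 and Flt1 9.41 in tumour cells; the 5.51 and 9.41 divide by a remainder near 0 and are no measured size. The causes of the other moves were not tested. Leaving out macrophages with an endothelial marker UMI, and the cell with most UMIs of a gene, were also chosen then. Of 626 values for 83 other results, 553 lay inside the interval. Thinning each cell to 1000 UMIs gave 41 of the 73 that lay outside. Endothelial ratios of treated over untreated cells were not formed, since 4 and 9 cells are too few.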
